A study of Mus musculus with 12 samples.

Results

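A set of 10 genes that mark monocytes and macrophages were followed in RNA-seq libraries of long-term haematopoietic stem cells (LT-HSCs) from mouse bone marrow. They were taken by symbol from the 28999 genes of the expression table, and all 10 were found: F13a1, Ly86, Ms4a6c, Ly6c2, Ccr2, Lyz2, Cx3cr1, Fcgr1, Mpeg1 and Ctss. The monocyte lineage genes Csf1r and Irf8 were left out of the group by its definition. The study compared mice labelled Trim47-/- (genotype given as Trim47 mutant) with wild-type mice, each with and without 5-fluorouracil (5-FU). 5-FU is a drug that kills dividing cells and so forces the marrow to rebuild its blood cells. The groups were Trim47-/- after 5-FU, wild type after 5-FU, Trim47-/- untreated and wild type untreated, with 3 libraries each and with 10 days given for the 5-FU groups. The sources used here do not give the markers of the LT-HSC sort, the strain, sex and age of the mice, the dose of 5-FU or which part of Trim47 is missing. Nothing says that the 3 libraries of a group came from separate mice, so p-values measure the spread of these libraries alone, and that spread may be technical.

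The libraries held 13919649 to 13953510 counts in Trim47-/- after 5-FU, 15111811 to 15151589 in wild type after 5-FU, 20661120 to 20703198 in untreated Trim47-/- and 14828152 to 14885673 in untreated wild type. Levels below are in CPM, counts divided by the library size after TMM scaling, and errors are SDs over 3 libraries. Trim47 itself averaged 11.3 ± 1.09 CPM in Trim47-/- libraries after 5-FU, against 35.4 ± 2.50 CPM in wild type after 5-FU. It averaged 19.7 ± 3.63 CPM in untreated Trim47-/- libraries, against 24.4 ± 0.531 CPM in untreated wild type. Trim47 was thus lower in the libraries labelled Trim47-/- in both states, without overlap, and was still counted in all of them. Untreated, the groups nearly met, at up to 23.7 CPM in Trim47-/- and from 23.8 CPM in wild type. The count covers the whole gene, so it does not check the deletion. All 14 genes of a list of LT-HSC markers passed the filter on low counts. Their summed level was 361 to 421 CPM in Trim47-/- libraries after 5-FU, 727 to 854 CPM in wild type after 5-FU, 812 to 915 CPM in untreated Trim47-/- and 676 to 785 CPM in untreated wild type.

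Monocytes arise in the marrow from stem cells by way of granulocyte-monocyte progenitors, leave through the blood and can become macrophages in tissues. The lineage is known for sensing microbes, engulfing and digesting them and presenting their fragments to T cells. The ETS factor PU.1 (gene Spi1) with C/EBP and IRF factors is known to drive many of its genes. By role the 10 genes fall into 4 sets. Ccr2, the receptor by which classical monocytes follow Ccl2 out of the marrow, and Cx3cr1, the fractalkine receptor, guide movement. Ly6c2, an anchored Ly6 protein that marks classical monocytes, Ms4a6c, a membrane protein of the Ms4a family, Ly86, the partner protein of the Toll-like receptor homologue Cd180, and Fcgr1, the high-affinity receptor for IgG, are surface or receptor proteins. Lyz2 encodes lysozyme, Mpeg1 a pore-forming protein of phagosomes and Ctss cathepsin S, the lysosomal protease that cuts the invariant chain of MHC class II. F13a1 encodes the A subunit of coagulation factor XIII, which cross-links fibrin.

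Promoters are shown for 4 of the genes, because 3 of them hold a match to a motif of a myeloid factor close to the start site and the last belongs to a close neighbour of the first. All 10 genes matched the RefSeq promoter table of build GRCm38.p6, with 12 windows of 300 bases that run from 250 bases before to 50 after the start. F13a1 (second start, minus strand) lies at chr13:37049164-37049463, Ms4a6c (plus) at chr19:11469118-11469417, Ctss (plus) at chr3:95526536-95526835 and Ly86 (plus) at chr13:37345095-37345394. Each is printed 5′ to 3′ on the strand of its gene, with motif matches in capitals.
F13a1: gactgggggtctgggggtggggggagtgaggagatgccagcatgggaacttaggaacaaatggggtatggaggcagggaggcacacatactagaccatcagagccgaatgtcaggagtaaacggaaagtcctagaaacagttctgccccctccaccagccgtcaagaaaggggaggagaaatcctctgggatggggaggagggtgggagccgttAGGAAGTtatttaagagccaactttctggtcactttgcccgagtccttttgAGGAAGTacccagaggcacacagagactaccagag
Ms4a6c: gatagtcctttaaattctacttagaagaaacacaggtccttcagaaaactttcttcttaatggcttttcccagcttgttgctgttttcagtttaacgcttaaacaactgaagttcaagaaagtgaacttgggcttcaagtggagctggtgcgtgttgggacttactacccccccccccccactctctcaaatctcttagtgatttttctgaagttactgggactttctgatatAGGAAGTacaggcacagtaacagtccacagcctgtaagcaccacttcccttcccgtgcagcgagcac
Ctss: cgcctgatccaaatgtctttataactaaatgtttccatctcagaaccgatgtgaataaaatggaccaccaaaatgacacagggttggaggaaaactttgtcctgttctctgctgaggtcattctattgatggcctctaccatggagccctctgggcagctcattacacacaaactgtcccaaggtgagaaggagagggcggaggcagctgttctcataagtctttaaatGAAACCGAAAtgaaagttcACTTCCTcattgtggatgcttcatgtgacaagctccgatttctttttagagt
Ly86: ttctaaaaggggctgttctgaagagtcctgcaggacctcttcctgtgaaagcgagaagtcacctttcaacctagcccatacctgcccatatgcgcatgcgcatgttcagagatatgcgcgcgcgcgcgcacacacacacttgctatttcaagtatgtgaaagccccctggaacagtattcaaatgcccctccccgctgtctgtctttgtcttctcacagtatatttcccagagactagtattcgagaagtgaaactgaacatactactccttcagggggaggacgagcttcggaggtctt

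The motifs searched on both strands were AGGAAGT (PU.1-type ETS), TTGCNNAA (C/EBP), an ISRE-type IRF motif of 10 letters (those of the Ctss match given next, with any base at its 2 middle positions) and a composite ETS with IRF motif. AGGAAGT was found in 7 of the 12 windows, belonging to 6 of the 10 genes (F13a1, Ms4a6c, Ctss, Ly6c2, Lyz2 and Fcgr1), against 9.35% of all 32851 windows and 10.7% of 27025 genes. In F13a1 it begins 36 bases before and again at base 16 after the second start, in Ms4a6c 17 bases before the start, and in Ctss, on the other strand, 2 bases before. The Ctss window also holds GAAACCGAAA beginning 21 bases before the start, the 1 match to the IRF motif among these genes, against 3.99% of all genes. The C/EBP motif (12.2% of all genes) and the ETS with IRF motif (3.16%) had no match in these windows. No printed match overlaps another, although the ETS motif and the ETS with IRF motif can share bases. A match describes these letters only and says nothing of binding.

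Some of the genes share a neighbourhood, though none of these distances entered their choice. F13a1 (chromosome 13, 36867178 to 37050244, minus strand, GRCm38) and Ly86 (chromosome 13, 37345208 to 37419036, plus) lie 294963 bases apart with 0 protein-coding genes between them. Ms4a6c (chromosome 19, 11469366 to 11482192, plus) and Mpeg1 (chromosome 19, 12460779 to 12465283, plus) lie 0.979 Mb apart with 37 coding genes between. Ctss (chromosome 3, 95526786 to 95556403, plus) and Fcgr1 (chromosome 3, 96282909 to 96293969, minus) lie 0.727 Mb apart. Cx3cr1 (chromosome 9, 119901616 to 120069879, minus), Ccr2 (chromosome 9, 124101950 to 124113557, plus), Lyz2 (chromosome 10, 117277331 to 117282321, minus) and Ly6c2 (chromosome 15, 75108158 to 75111970, minus) complete the group.

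Some counts are less certain because sequence is shared or exons overlap. Of the distinct 50-base words of their transcripts, Ms4a6c shared 51.4% with other genes, mostly with BE692007, a transcript on the opposite strand. Lyz2 shared 15.4% with its paralogue Lyz1, and Ly6c2 shared 14.5%, mostly with its paralogue Ly6c1. The other 7 genes shared at most 1.91%. BE692007 averaged at most 0.507 ± 0.319 CPM and Lyz1 at most 0.217 ± 0.000447 CPM in any group, far below Ms4a6c and Lyz2. Ly6c1 averaged 16.6 ± 1.17 CPM in Trim47-/- and 8.94 ± 0.418 CPM in wild type after 5-FU, and 8.49 ± 0.109 CPM in Trim47-/- and 11.7 ± 2.04 CPM in wild type without it. F13a1 and Cx3cr1 each overlap an exon of an antisense gene, and whether the counting used strand is not given. Per kilobase of exon, Lyz2 was the most abundant of the 10 in every group, at 186 ± 3.30 CPM per kb in Trim47-/- after 5-FU, 157 ± 4.41 in wild type after 5-FU, 125 ± 6.29 in untreated Trim47-/- and 123 ± 4.94 in untreated wild type. Fcgr1 was the least abundant in every group, at 0.531 ± 0.145 CPM per kb in Trim47-/- after 5-FU, 0.277 ± 0.143 in wild type after 5-FU, 0.158 ± 0.0392 in untreated Trim47-/- and 0.241 ± 0.0270 in untreated wild type.

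**Figure D1:**
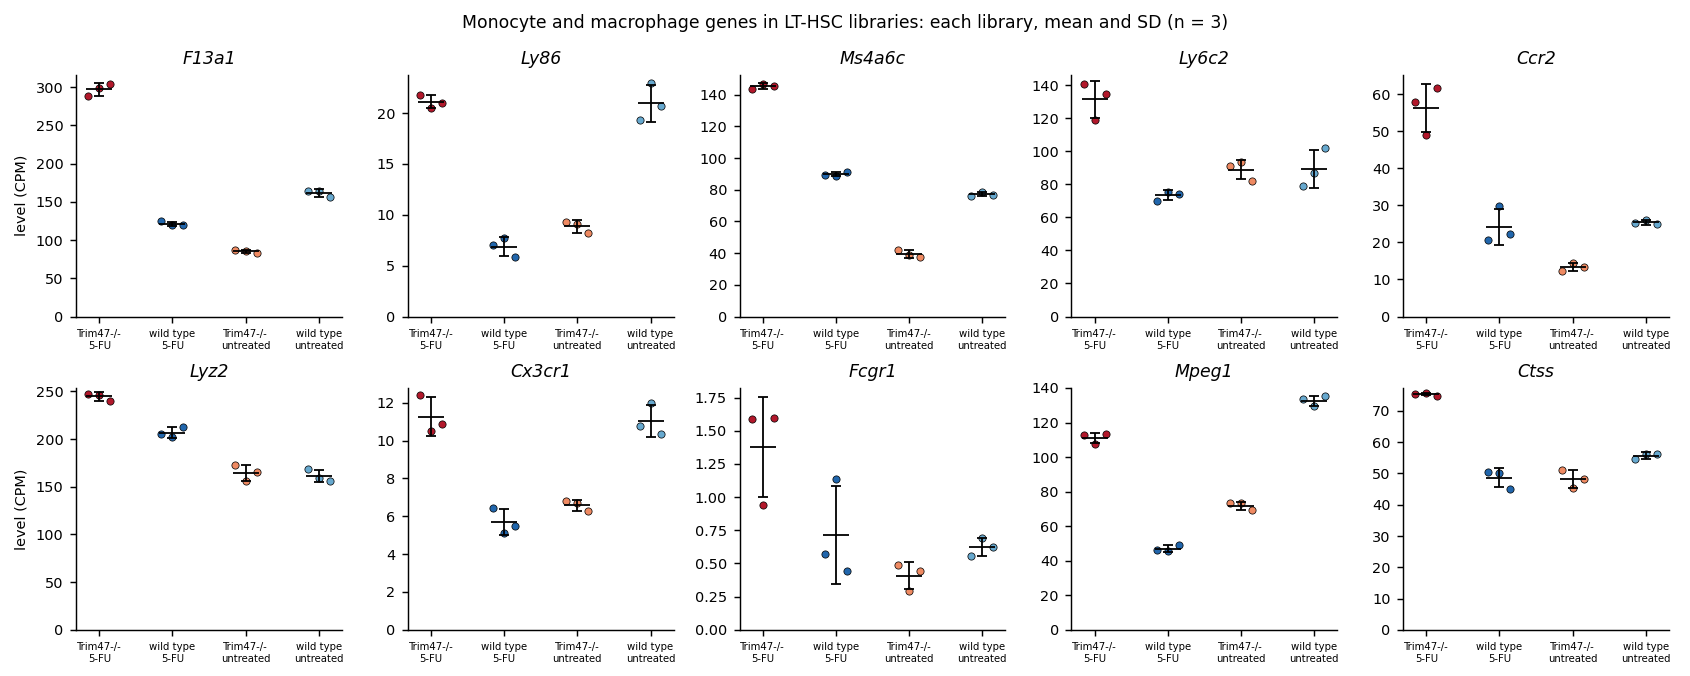
Level of each of the 10 genes (vertical axis, CPM, from 0) in the 4 groups of LT-HSC libraries. Points are the 3 libraries of a group, the dash and bar their mean and SD. Trim47-/- after 5-FU is the highest group for 9 genes, and wild type untreated for Mpeg1.

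Most of the genes shared their highest group but not the order of the others. Trim47-/- after 5-FU had the highest mean for 9 of the 10, and untreated wild type for Mpeg1. Untreated Trim47-/- had the lowest mean for 5 (F13a1, Ms4a6c, Ccr2, Fcgr1 and Ctss), wild type after 5-FU for 4 (Ly86, Ly6c2, Cx3cr1 and Mpeg1) and untreated wild type for 1 (Lyz2). The highest group overlapped the next one for Ly86, Cx3cr1 and Fcgr1. The highest mean stood above the lowest by 1.52-fold for Lyz2, 1.56-fold for Ctss and 1.79-fold for Ly6c2, and by 4.22-fold for Ccr2 at the other end. Within groups the counts of the libraries spread beyond counting noise at the 1% level in 6 of 40 gene and group combinations. Of the 13879 genes with at least 10 counts in every library, a base without Fcgr1, 12.4% to 14.1% did so in a group. These 10 genes summed to 1076 to 1108 CPM in Trim47-/- libraries after 5-FU, 620.2 to 628 CPM in wild type after 5-FU, 514 to 547 CPM in untreated Trim47-/- and 732 to 739 CPM in untreated wild type.

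The comparison of Trim47-/- with wild type in untreated mice asks how the loss of Trim47 bears on LT-HSCs at rest. Of the 10 genes, 6 were lower in Trim47-/- libraries by 1.68-fold to 2.37-fold (Ly86, Ms4a6c, Ccr2, F13a1, Mpeg1 and Cx3cr1) and Ctss by 1.16-fold, while Lyz2, Ly6c2 and Fcgr1 did not pass the test. Among the 9 genes that reached the low-count cutoff in every library, 7 fell, 0 rose and 2 did not pass, at a threshold of 0.05 on adjusted p from edgeR's quasi-likelihood test with Benjamini-Hochberg adjustment. Of all 16319 genes tested, 15.4% were lower by that rule. The median log2 fold change of the 9 was -0.88, against 0.03 over all genes. As these are bulk libraries, fewer cells of a type and less RNA per cell cannot be told apart. In the same contrast 7 of 14 LT-HSC markers and 7 of 11 neutrophil markers tested rose and 0 fell. Of all genes tested, 17.6% were higher. The LT-HSC list summed to 812 to 915 CPM in Trim47-/- and 676 to 785 CPM in wild type, and the neutrophil list to 550.0 to 580.2 CPM in Trim47-/- and 423 to 441 CPM in wild type. The part of these cells in the result was not tested.

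Ly86 had the largest difference. It stood at 9.32, 9.08 and 8.16 CPM in the untreated Trim47-/- libraries, against 19.3, 22.9 and 20.7 CPM in untreated wild type. The groups did not overlap, and the log2 fold change was -1.24 (SE 0.0976, adjusted p = 2.97e-06), or 2.37-fold lower. Its neighbour F13a1 had 87.6, 85.5 and 83 CPM in Trim47-/-, against 165, 165 and 156 CPM in wild type, with a log2 fold change of -0.92 (SE 0.0330, adjusted p = 6.56e-09). All Trim47-/- values of the coagulation factor gene were below all wild-type ones. Ms4a6c, whose transcript words are partly shared with other genes, had 42.3, 38.9 and 37.6 CPM in Trim47-/-, against 76.2, 78.6 and 76.6 CPM in wild type. Its log2 fold change was -0.96 (SE 0.0400, adjusted p = 2.10e-08).

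Both chemokine receptors were lower. Ccr2 stood at 12.3, 14.3 and 13.5 CPM in Trim47-/- and 25.2, 26.1 and 25 CPM in wild type, a log2 fold change of -0.93 (SE 0.131, adjusted p = 0.000275). Cx3cr1 stood at 6.82, 6.68 and 6.26 CPM in Trim47-/- and 10.8, 12 and 10.4 CPM in wild type, a log2 fold change of -0.75 (SE 0.101, adjusted p = 0.000208). Neither receptor's groups overlapped. The phagosome gene Mpeg1 had 73.2, 73.2 and 69.2 CPM in Trim47-/- and 133, 129 and 135 CPM in wild type, a log2 fold change of -0.88 (SE 0.0383, adjusted p = 2.87e-08).

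The lysosomal and secreted enzymes moved less. Ctss had 51, 45.5 and 48.2 CPM in Trim47-/- and 54.5, 56.3 and 56.3 CPM in wild type, and fell by 0.21 on the log2 scale (adjusted p = 0.00903). Lyz2 had 173, 156 and 165 CPM in Trim47-/- and 169, 159 and 156 CPM in wild type, groups that overlap, with a log2 fold change of 0.03 (SE 0.0401, adjusted p = 0.607). Ly6c2 likewise overlapped, at 91.1, 93.7 and 82.2 CPM in Trim47-/- and 79.2, 87.1 and 102 CPM in wild type, with a log2 fold change of -0.01 (SE 0.0899, adjusted p = 0.971). For both, the difference was smaller than the spread between libraries.

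The non-overlap of the groups adds a view that needs no model. In untreated mice the groups did not overlap, with Trim47-/- lower, for 7 of the 9 genes, against 21.6% of all genes tested. At least 2-fold lower was 1 of the 9, Ly86, against 3.01% of all genes.

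After 5-FU the genotype difference had the opposite sign. All 9 genes that reached the cutoff in every library were higher in Trim47-/- than in wild type, where 27.2% of all genes tested were higher. The median log2 fold change of the 9 was 0.98, against -0.000372 over all genes. The groups did not overlap for any of the 9, against 30.5% of all genes that were higher without overlap. At least 2-fold higher were 4 of them (Ly86, F13a1, Mpeg1 and Ccr2), against 3.38% of all genes. LT-HSC markers moved the other way in this contrast: all 14 fell, with summed levels of 361 to 421 CPM in Trim47-/- and 727 to 854 CPM in wild type. Of all 16319 genes tested, 4499 were lower. Neutrophil markers rose for 10 of 11 tested, and summed to 1471 to 1565 CPM in Trim47-/- and 932 to 966 CPM in wild type. The part of a changed mix of cells in the sort was not tested.

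Ly86 again differed most, with 21.8, 20.5 and 21 CPM in Trim47-/- after 5-FU, against 7.01, 7.72 and 5.88 CPM in wild type after 5-FU. Its log2 fold change was 1.62 (SE 0.102, adjusted p = 1.56e-07), or 3.07-fold higher. F13a1 stood at 288, 299 and 305 CPM in Trim47-/-, against 124, 119 and 120.3 CPM in wild type, a log2 fold change of 1.29 (SE 0.0329, adjusted p = 1.07e-10). Ly86 and F13a1 had the largest estimates of the group in this state, with Mpeg1 and Ccr2 close behind F13a1. Mpeg1 stood at 113, 108 and 113 CPM in Trim47-/-, against 46.2, 45.6 and 49.3 CPM in wild type, a log2 fold change of 1.24 (SE 0.0394, adjusted p = 6.47e-10).

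Ccr2 had 58.1, 49.1 and 61.8 CPM in Trim47-/- and 20.6, 29.8 and 22.3 CPM in wild type, a log2 fold change of 1.22 (SE 0.126, adjusted p = 8.86e-06). Its second wild-type library was above the other 2 and still below every Trim47-/- library. Cx3cr1 had 12.4, 10.5 and 10.9 CPM in Trim47-/- and 6.44, 5.12 and 5.50 CPM in wild type, a log2 fold change of 0.98 (SE 0.105, adjusted p = 1.10e-05). Ly6c2 had 141, 119 and 135 CPM in Trim47-/- and 69.9, 75.7 and 74.4 CPM in wild type, a log2 fold change of 0.84 (SE 0.0906, adjusted p = 1.17e-05). This monocyte surface gene differed between genotypes here, whereas in untreated mice its groups overlapped.

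Ms4a6c had 143, 147 and 146 CPM in Trim47-/- and 89.5, 88.6 and 91.4 CPM in wild type, a log2 fold change of 0.69 (SE 0.0387, adjusted p = 5.79e-08). Ctss had 75.6, 75.8 and 74.9 CPM in Trim47-/- and 50.6, 50.2 and 45.1 CPM in wild type, a log2 fold change of 0.63 (SE 0.0514, adjusted p = 1.21e-06). Lyz2 had 248, 247 and 239.6 CPM in Trim47-/- and 205, 202 and 213 CPM in wild type, a log2 fold change of 0.24 (SE 0.0399, adjusted p = 0.000310). Lysozyme, the most abundant transcript of the 10 per kilobase, had the smallest difference of the group, and its libraries still did not overlap.

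Fcgr1, the IgG receptor, needs separate mention because it was at the limit of detection. Its counts ran from 13 to 22 in Trim47-/- after 5-FU, 7 to 18 in wild type after 5-FU, 6 to 10 in untreated Trim47-/- and 8 to 10 in untreated wild type. It reached the cutoff of 0.667 CPM in all 3 Trim47-/- libraries after 5-FU but in 1 of 3 in wild type after 5-FU, 0 of 3 in untreated Trim47-/- and 1 of 3 in untreated wild type, so it was tested only because of the group in which it was high. After 5-FU it stood at 1.59, 0.942 and 1.60 CPM in Trim47-/- and 0.568, 1.14 and 0.443 CPM in wild type, groups that overlap, with a log2 fold change of 0.93 (SE 0.334, adjusted p = 0.0335). That call was lost in a fit without the low-count filter (adjusted p = 0.0708), with DESeq2 (0.103) and in the fit of the 6 libraries compared (0.0789). It was also lost without replicate 1 or 3 of Trim47-/- after 5-FU (0.105 and 0.107) and without replicate 1 or 3 of wild type after 5-FU (0.106 and 0.129), while without replicate 2 of wild type after 5-FU the log2 fold change was 1.43 (0.00396). Untreated, it stood at 0.490, 0.295 and 0.440 CPM in Trim47-/- and 0.553, 0.693 and 0.622 CPM in wild type, a log2 fold change of -0.60 (SE 0.411, adjusted p = 0.301). A difference in untreated mice was not detectable at this depth.

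**Figure D2:**
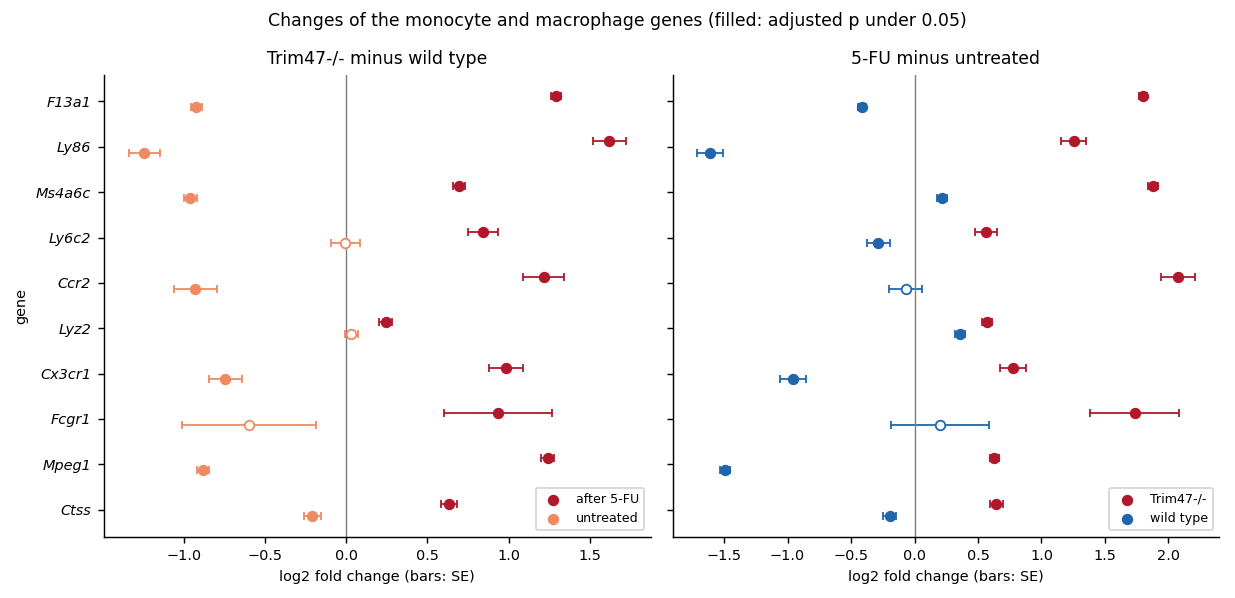
Log2 fold changes (horizontal axis) of the 10 genes (vertical axis), with SE bars; the left panel shows Trim47-/- over wild type after 5-FU and untreated, the right panel 5-FU over untreated in Trim47-/- and in wild type. Filled points passed an adjusted p of 0.05. On the left, filled points lie above 0 after 5-FU and below 0 untreated; on the right, all Trim47-/- points lie above 0.

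**Figure D3:**
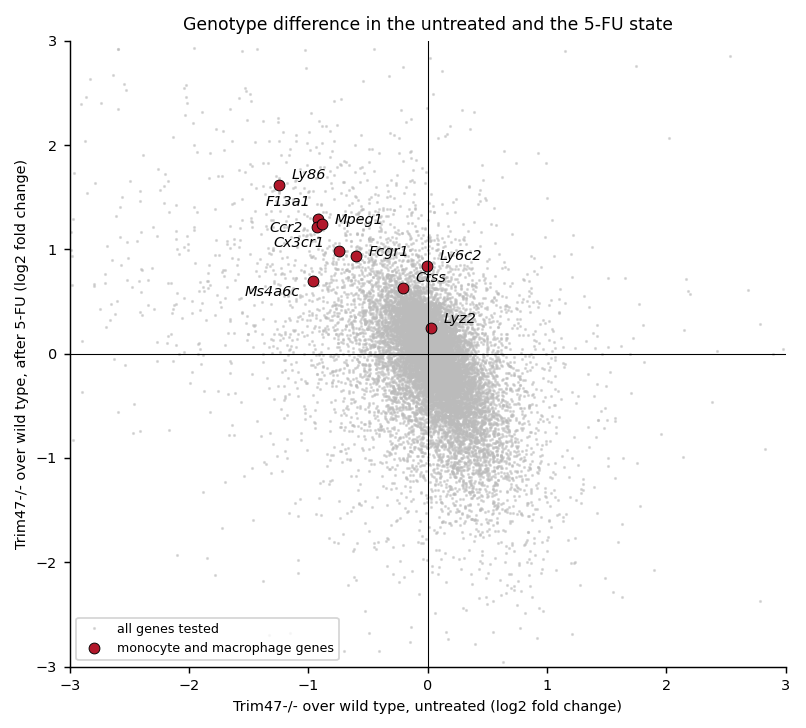
Log2 fold change of Trim47-/- over wild type untreated (horizontal axis) and after 5-FU (vertical axis) for all 16319 genes tested (grey), with the 10 genes in red; 139 genes lie outside the axes, which end at 3. Of the 10, 7 were called lower untreated and higher after 5-FU, as were 9.69% of all genes.

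The comparison of both states for a gene uses separate libraries. F13a1, Ly86, Ms4a6c, Ccr2, Cx3cr1, Mpeg1 and Ctss were lower in Trim47-/- untreated and higher in Trim47-/- after 5-FU. The same change of sign held for 1582 of the 16319 genes tested, or 9.69%, and the opposite one, higher untreated and lower after 5-FU, for 11.1%. Calls in the same direction in both states were fewer, 1.44% lower and 2.13% higher. The sign change is thus common in these data and includes 7 of these 10 genes.

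The response to 5-FU within each genotype asks what the drug did to the LT-HSC pool in each. In wild type the genes did not move together: of the 9, 6 fell, 2 rose and 1 did not pass, with a median log2 fold change of -0.29 against 0.01 over all genes. Of all genes tested, 25.4% fell and 25.2% rose. Ly86 fell most, to 6.87 ± 0.925 CPM after 5-FU, against 21 ± 1.84 CPM untreated, a log2 fold change of -1.61 (SE 0.102, adjusted p = 1.54e-07). Mpeg1 fell to 47 ± 1.97 CPM after 5-FU, against 133 ± 2.98 CPM untreated, a log2 fold change of -1.49 (SE 0.0394, adjusted p = 8.79e-11). These 2 were at least 2-fold lower, as were 7.06% of all genes. Cx3cr1 fell by 0.96, F13a1 by 0.42 and Ctss by 0.20 on the log2 scale (adjusted p = 1.60e-05, 9.99e-07 and 0.00792). Ly6c2 fell by 0.29 (adjusted p = 0.0211), a call that rested on single libraries: it was -0.18 with an adjusted p of 0.0888 without untreated wild-type replicate 3, and had an adjusted p of 0.0751 without wild-type 5-FU replicate 1 and 0.0549 without the low-count filter. Lyz2 rose to 207 ± 5.80 CPM after 5-FU, against 161 ± 6.50 CPM untreated, a log2 fold change of 0.36 (SE 0.0401, adjusted p = 1.94e-05). Ms4a6c rose by 0.22 (adjusted p = 0.000641). Lysozyme and the Ms4a gene thus went against the other 6 that passed. Ccr2 did not pass, at 24.2 ± 4.89 CPM after 5-FU and 25.4 ± 0.598 CPM untreated, a log2 fold change of -0.07 (SE 0.129, adjusted p = 0.688). Fcgr1 did not pass either, with a log2 fold change of 0.20 (SE 0.387, adjusted p = 0.702). Beside these, 8 of 14 LT-HSC markers rose and 3 fell, and 9 of 11 neutrophil markers rose and 0 fell, in wild type after 5-FU. Dendritic cell genes fell for 7 of 9 tested, with a median of -2.02, and B cell genes fell for 6 of 7 and rose for 1, with a median of -1.47. The dendritic cell list summed to 240.4 to 297 CPM after 5-FU and 374 to 438 CPM untreated, and the B cell list to 21.8 to 25.7 CPM after 5-FU and 29.3 to 31.2 CPM untreated. Their part in the result was not tested.

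In Trim47-/- mice all 9 genes rose after 5-FU, with a median log2 fold change of 0.77 against -0.01 over all genes, of which 29.6% rose. Of the 9, 4 rose at least 2-fold (Ccr2, Ms4a6c, F13a1 and Ly86), against 4.03% of all genes. Ccr2 rose most, to 56.3 ± 6.52 CPM after 5-FU, against 13.4 ± 1.05 CPM untreated, a log2 fold change of 2.07 (SE 0.130, adjusted p = 9.33e-08). Ms4a6c rose to 145 ± 1.83 CPM, against 39.6 ± 2.39 CPM untreated, a log2 fold change of 1.88 (SE 0.0402, adjusted p = 1.25e-11). F13a1 rose to 297 ± 8.37 CPM, against 85.4 ± 2.30 CPM untreated, a log2 fold change of 1.799 (SE 0.0334, adjusted p = 3.63e-12). The receptor, the membrane protein and the coagulation factor gene thus had the largest responses, between 3.48-fold and 4.21-fold. Ly86 rose by 1.25, Cx3cr1 by 0.77, Ctss by 0.65, Mpeg1 by 0.63, Lyz2 by 0.57 and Ly6c2 by 0.56 on the log2 scale. None of these groups overlapped between 5-FU and untreated libraries, against 32.8% of all genes that were higher without overlap. Fcgr1 rose by 1.73 (SE 0.352, adjusted p = 0.00120), with the low counts given above. In the same contrast 1 of 14 LT-HSC markers rose and 10 fell, and 11 of 11 neutrophil markers rose. Of all 16319 genes tested, 5031 fell. Of 9 dendritic cell genes 2 rose and 4 fell, and of 7 B cell genes 0 rose and 5 fell. Their part in the result was not tested either.

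The difference between these responses was tested itself, as the 5-FU response in Trim47-/- minus that in wild type. It was positive for all 9 genes, where 26.4% of all genes were higher by the same rule and 54.9% passed in either direction, with a median of 1.73 log2 units against -0.03 over all genes. The values were largest for Ly86, at 2.86 (SE 0.141, adjusted p = 2.10e-08), F13a1, at 2.21 (SE 0.0466, adjusted p = 2.00e-11), Ccr2, at 2.14 (SE 0.182, adjusted p = 1.75e-06), and Mpeg1, at 2.12 (SE 0.0549, adjusted p = 1.09e-10). Cx3cr1 followed at 1.73, Ms4a6c at 1.66, Ly6c2 at 0.85, Ctss at 0.84 and Lyz2 at 0.21, the smallest (adjusted p = 0.00748). For Ly86, F13a1, Cx3cr1, Mpeg1, Ly6c2 and Ctss the 5-FU response had opposite signs in the genotypes, rising in Trim47-/- and falling in wild type. Lyz2 and Ms4a6c rose in both, and more in Trim47-/-. Fcgr1 had 1.53 (SE 0.532, adjusted p = 0.0293), a call that ended in a fit without the low-count filter (adjusted p = 0.0575) and with DESeq2 (0.0728). It also ended without replicate 1 or 3 of either 5-FU group, replicate 2 of untreated Trim47-/- or replicate 2 or 3 of untreated wild type (adjusted p between 0.0547 and 0.0677). By the same test 14 of 14 LT-HSC markers were lower, and 8 of 11 neutrophil markers were higher and 0 lower. Of all 16319 genes tested, 4644 were lower.

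Relatives and partners of the 10 genes were listed as well. Of 22 tested, 11 were lower and 2 higher in untreated Trim47-/-, with a further 9 not passing, and 13 were higher and 1 lower in Trim47-/- after 5-FU. Their median log2 fold change was -0.14 untreated and 0.37 after 5-FU. Over all genes tested, 15.4% were lower and 17.6% higher untreated, and 27.2% were higher after 5-FU. In the 5-FU response of wild type, where 6 of the 9 genes fell, 11 of the 22 rose and 4 fell, with a median of 0.19. There 25.2% of all genes tested rose and 25.4% fell. Ms4a4c, of the same family as Ms4a6c, stood at 8.74 ± 0.529 CPM in Trim47-/- and 3.12 ± 0.313 CPM in wild type after 5-FU, a log2 fold change of 1.48 (SE 0.0954, adjusted p = 1.85e-07). Untreated, it stood at 1.86 ± 0.133 CPM in Trim47-/- and 5.49 ± 0.204 CPM in wild type, a log2 fold change of -1.56 (SE 0.103, adjusted p = 7.78e-07). These are the signs of Ms4a6c itself. Fcer1g, the signalling chain that Fcgr1 needs, was 0.37 log2 units lower in untreated Trim47-/- and 0.73 higher after 5-FU (adjusted p = 0.000726 and 1.22e-06). The lysosomal protease gene Ctsz was 0.27 lower untreated and 0.78 higher after 5-FU (adjusted p = 4.62e-05 and 2.79e-09), and the cathepsin inhibitor gene Cstb was 0.63 higher after 5-FU (adjusted p = 6.13e-07). Cd180, the receptor to which the Ly86 product binds, was named after its values were seen because it went the other way. It averaged 18.3 ± 0.762 CPM in untreated Trim47-/- and 13.4 ± 2.24 CPM in untreated wild type, a log2 fold change of 0.46 (adjusted p = 0.00987). After 5-FU it averaged 15.4 ± 1.72 CPM in Trim47-/- and 17.2 ± 1.16 CPM in wild type, a log2 fold change of -0.16 (adjusted p = 0.268).

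The other classical monocyte genes followed the same direction more often than not. Genes of non-classical monocytes and resident macrophages did not, and their medians after 5-FU were negative. These differences between lists were not tested. Of 12 classical genes, 7 were lower and 1 higher in untreated Trim47-/-, and 8 were higher and 1 lower after 5-FU, with medians of -0.21 and 0.29 log2 units. Over all genes tested, 15.4% were lower and 17.6% higher untreated. After 5-FU 27.2% were higher, and 4499 of the 16319 were lower. Cd14, the co-receptor for lipopolysaccharide, averaged 44.2 ± 2.44 CPM in Trim47-/- and 17.2 ± 0.330 CPM in wild type after 5-FU, and 12.5 ± 1.69 CPM in Trim47-/- and 23.1 ± 3.87 CPM in wild type untreated. Its log2 fold changes were 1.36 (SE 0.117, adjusted p = 2.00e-06) and -0.88 (SE 0.120, adjusted p = 0.000213). Plac8 was 0.88 higher after 5-FU and 0.45 lower untreated (adjusted p = 6.01e-09 and 3.74e-06). Chil3, a chitinase-like protein of classical monocytes, was 0.51 higher in untreated Trim47-/- (adjusted p = 1.87e-05). Of 7 non-classical genes tested, 0 were higher and 1 lower untreated, and 1 was higher and 3 lower after 5-FU, with medians of 0.06 and -0.40. Nr4a1, the orphan nuclear receptor that non-classical monocytes need, had a log2 fold change of -0.99 (SE 0.0724, adjusted p = 5.17e-07) after 5-FU, with 1108 ± 151 CPM in Trim47-/- and 2199.5 ± 29.6 CPM in wild type. Untreated, Nr4a1 averaged 5843 ± 42.9 CPM in Trim47-/- and 5472 ± 125 CPM in wild type, so it was lower after 5-FU in both genotypes. The part of non-classical monocytes in its level was not tested. Of 11 resident macrophage genes tested, 1 rose and 1 fell untreated and 3 rose and 3 fell after 5-FU, with medians of -0.01 and -0.34. The calls of this list after 5-FU were near the share of all genes that passed in either direction, 54.7%. After 5-FU, Vcam1, an adhesion molecule gene of marrow macrophages, was 0.37 lower in Trim47-/- (adjusted p = 0.000247). Apoe, the apolipoprotein E gene, was 0.93 lower (adjusted p = 0.000605), at 82.6 ± 24.2 CPM in Trim47-/- and 157 ± 10.3 CPM in wild type. The named macrophage genes thus went in both directions: Axl, a receptor kinase gene, was 0.44 higher (adjusted p = 0.00728). Adgre1, which encodes the macrophage marker F4/80, was 1.10 higher (adjusted p = 0.00382), at 5.79 ± 1.65 CPM in Trim47-/- and 2.70 ± 0.922 CPM in wild type. The macrophage list summed to 122 to 166 CPM in Trim47-/- libraries after 5-FU, 204 to 224 CPM in wild type after 5-FU, 105 to 114 CPM in untreated Trim47-/- and 89 to 103 CPM in untreated wild type, and Apoe made up most of these sums after 5-FU.

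Of 13 genes that direct the lineage, 5 were lower and 2 higher in untreated Trim47-/-, where 15.4% of all genes tested were lower and 17.6% higher. After 5-FU, 8 were higher and 3 lower, where 54.7% of all genes passed. Csf1r stands both in this list and in the classical monocyte one. Their median log2 fold change was -0.10 untreated and 0.21 after 5-FU. After 5-FU, Spi1 averaged 237 ± 0.349 CPM in Trim47-/- and 161 ± 6.22 CPM in wild type, a log2 fold change of 0.56 (SE 0.0382, adjusted p = 3.22e-07). Cebpa, which encodes the C/EBP factor of granulocyte-monocyte progenitors, averaged 134 ± 1.21 CPM in Trim47-/- and 82.7 ± 1.45 CPM in wild type, a log2 fold change of 0.70 (SE 0.0626, adjusted p = 2.80e-06). Csf1r, the receptor for the macrophage growth factor, averaged 135 ± 4.26 CPM in Trim47-/- and 57.5 ± 1.40 CPM in wild type, a log2 fold change of 1.23 (SE 0.0439, adjusted p = 1.71e-09). These 3 were higher together with the 9 genes that reached the low-count cutoff in every library. Gfi1, a repressor that favours the granulocyte branch, went the other way after 5-FU, at 31 ± 1.08 CPM in Trim47-/- and 59.7 ± 4.35 CPM in wild type, a log2 fold change of -0.94 (SE 0.0560, adjusted p = 9.80e-08). Maf and Klf4, named after their values were seen, were lower as well, with log2 fold changes of -0.72 and -0.11 (adjusted p = 0.000292 and 0.00910). In untreated mice Gfi1 was 0.46 higher in Trim47-/-, while Csf1r was 0.67, Zeb2 0.55 and Klf4 0.24 lower (adjusted p = 8.20e-05, 6.87e-07, 0.000121 and 0.000156).

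**Figure D4:**
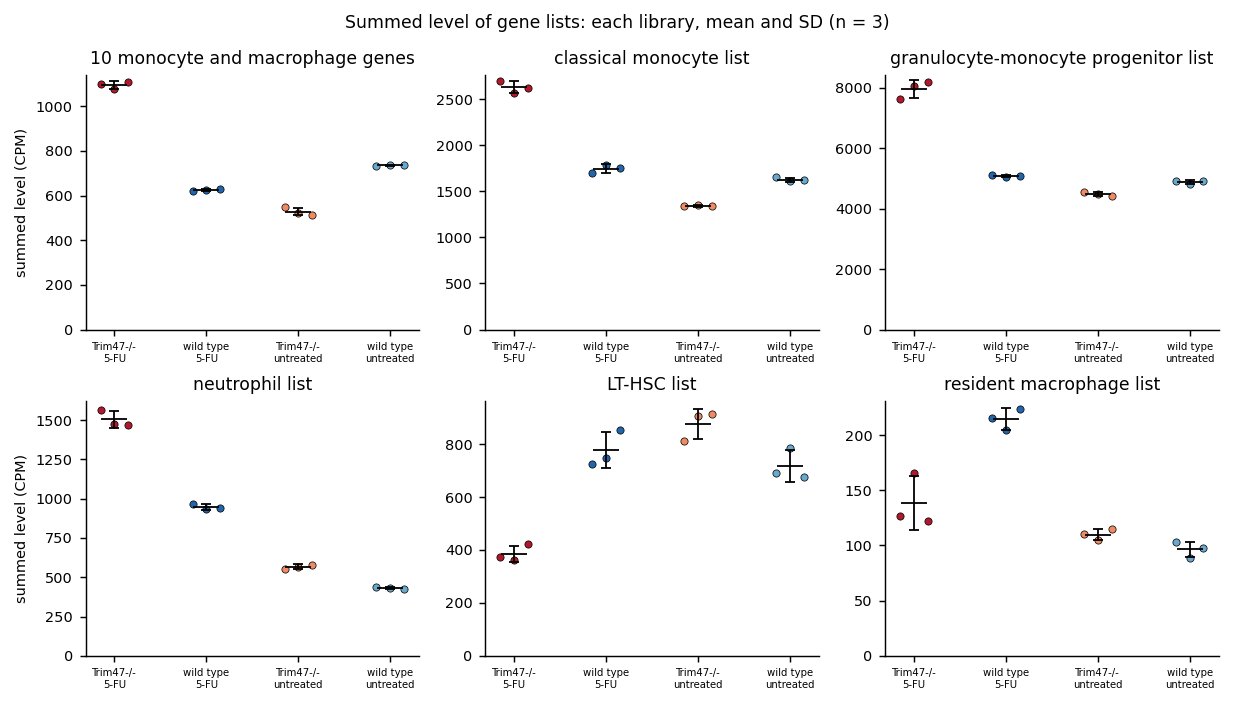
Summed level (vertical axis, CPM, from 0) of the 10 genes and of 5 marker lists in the 4 groups; points are the 3 libraries, dash and bar their mean and SD. The 10 genes, the classical monocyte, granulocyte-monocyte progenitor and neutrophil lists are highest in Trim47-/- after 5-FU, where the LT-HSC list is lowest.

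Markers of other cells changed as well, in directions that differed between lists. Granulocyte-monocyte progenitor genes summed to 7621 to 8176 CPM in Trim47-/- libraries after 5-FU, 5047 to 5104 CPM in wild type after 5-FU, 4405 to 4561 CPM in untreated Trim47-/- and 4819 to 4924 CPM in untreated wild type. Mpo and Calr had the highest levels of this list in every group and made up most of these sums. Of the 11, 4 were lower and 2 higher in untreated Trim47-/-, and 7 were higher and 0 lower after 5-FU, with medians of 0.02 and 0.43. Over all genes tested, 15.4% were lower and 17.6% higher untreated. After 5-FU 27.2% were higher, and 4499 of the 16319 were lower. Mpo, the myeloperoxidase of these progenitors, averaged 3285 ± 237 CPM in Trim47-/- and 1831 ± 34 CPM in wild type after 5-FU, a log2 fold change of 0.84 (SE 0.0443, adjusted p = 3.65e-08). Ctsg, a serine protease of their granules, was 0.76 higher after 5-FU and 0.55 lower untreated (adjusted p = 8.60e-10 and 4.24e-08), the pattern of the monocyte genes. Neutrophil genes summed to 1471 to 1565 CPM in Trim47-/- libraries after 5-FU, 932 to 966 CPM in wild type after 5-FU, 550.0 to 580.2 CPM in untreated Trim47-/- and 423 to 441 CPM in untreated wild type. Of 11 tested, 7 were higher and 0 lower in untreated Trim47-/-, where 7 of the 10 genes were lower. Ngp, a granule protein gene, was 0.51 higher untreated and 0.91 higher after 5-FU (adjusted p = 6.05e-08 and 1.57e-10). Esam, an adhesion molecule gene among the LT-HSC markers, averaged 13.8 ± 1.36 CPM in Trim47-/- and 41.7 ± 1.71 CPM in wild type after 5-FU, a log2 fold change of -1.59 (SE 0.0774, adjusted p = 1.95e-08). Untreated, Esam averaged 21.7 ± 0.985 CPM in Trim47-/- and 15 ± 1.02 CPM in wild type, a log2 fold change of 0.53 (SE 0.0769, adjusted p = 0.000327). Its log2 fold changes had the opposite sign to those of the 7 genes that were lower untreated and higher after 5-FU. B cell markers summed to at most 32 CPM and T and NK cell markers to at most 12.9 CPM in any library, and dendritic cell markers to 222 to 243 CPM in Trim47-/- libraries after 5-FU, 240.4 to 297 CPM in wild type after 5-FU, 341 to 412 CPM in untreated Trim47-/- and 374 to 438 CPM in untreated wild type. Of 9 dendritic cell genes tested, 0 were higher and 2 lower untreated, and 0 were higher and 1 lower after 5-FU. Of 7 B cell genes, 0 were higher and 1 lower untreated, and 0 were higher and 4 lower after 5-FU, and of 3 T and NK cell genes 1 was lower after 5-FU. No gene of these lists that was in the table was at 0 in all libraries. The part of any of these cells in the levels of the 10 genes was not tested.

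Across the 12 libraries the 10 genes followed each other closely to loosely. The correlation of a gene's log2 CPM with the mean of the other 9, each scaled to unit variance, was 0.975 for F13a1, 0.966 for Ctss and 0.921 for Ccr2, and lowest for Mpeg1 (0.593) and Lyz2 (0.561). These values describe 12 points that fall into 4 groups, and the points of a group share treatment and genotype. Of 10359 other genes ranked against the mean of the 10, Mapkapk2, a stress kinase, was closest (r = 0.995), followed by Slc2a6 (0.990), a sugar transporter of the GLUT family, Nup210 (0.989), a nuclear pore protein, Mgat5 (0.987), a glycosyltransferase, and Tfrc (0.987), the transferrin receptor. Mapkapk2 averaged 722 ± 2.75 CPM in Trim47-/- and 377 ± 13 CPM in wild type after 5-FU, and 344 ± 12.3 CPM in Trim47-/- and 495 ± 7.69 CPM in wild type untreated. Its order of groups, with Trim47-/- highest after 5-FU and lowest untreated, is that of F13a1, Ccr2 and Ctss.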

How the data were processed

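Stranded paired-end libraries of poly-A RNA were read on an Illumina instrument, per the labels' protocols; there were 12 libraries, 3 for each of 4 groups taken from the sample titles. The deposited table holds whole-number counts per gene and FPKM values made by the authors; HISAT2, StringTie, CASAVA 1.8 and edgeR, with build GRCm38, are named in the submitters' processing notes without their roles. The deposited FPKM was used only to read the gene lengths behind it, which exceeded the union of exons by up to 2.13-fold (Ccr2), so levels between genes were set per kilobase of union exon (GENCODE M21).

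The test of the counts was edgeR's (version 4.0.16, R 4.3.3): filterByExpr over the 4 groups with a minimum count of 10 (16319 of 28999 genes kept), TMM scaling, glmQLFit with 1 mean per group over all 12 libraries, glmQLFTest, and Benjamini-Hochberg adjustment over all genes tested, with a threshold of 0.05. The SE of a log2 fold change is its size over the root of the F statistic. The procedure was tested on simulated data. Depth limits the scarce genes: at a few counts per library, counting noise alone is a large part of the value. Sharing of 50-base words was counted in GENCODE M21 transcripts. Replicate numbers in the titles were not taken to pair the libraries. Alternatives were DESeq2 1.42.0, its size factors, no low-count filter, stricter thresholds, fits of 6 libraries, a replicate block and each library left out.

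The 10 genes and all lists were chosen with earlier results of these data known. Genes named were the 10, in each list up to 4 with the smallest p per comparison, and the 6 with the highest correlation to the mean of the 10 among genes with at least 5 CPM; exceptions are marked, and some genes the rule picks are not reported here. Marco, listed for resident macrophages, was not analysed here.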

Additional observations from a re-analysis of the deposited data

Results flagged for a closer look

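By edgeR's interaction test the response to 5-FU differed between the genotypes for the 9 genes that reached the low-count cutoff in every library, and Fcgr1 passed it less firmly. The 5-FU response in Trim47-/- minus that in wild type, in log2 units, was 2.86 for Ly86, 2.21 for F13a1, 2.14 for Ccr2, 2.12 for Mpeg1, 1.73 for Cx3cr1, 1.66 for Ms4a6c, 1.53 for Fcgr1, 0.85 for Ly6c2, 0.84 for Ctss and 0.21 for Lyz2. Of all 16319 genes tested, 54.9% passed this test in either direction, so a response that differs between the genotypes is common in these data. The Fcgr1 value has an adjusted p of 0.0293 and rests on 6 to 22 counts per library, and Fcgr1 was tested only because it reached the cutoff in Trim47-/- after 5-FU. Its call was lost without the low-count filter (adjusted p = 0.0575), with DESeq2 (0.0728), with the replicate block (0.0519) and on leaving out any of 7 single libraries (0.0547 to 0.0677).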

How the results depend on the processing

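No called value of the 10 genes reversed under the alternatives; of the uncalled ones, the 5-FU responses in wild type changed sign for Ccr2 (0.04 without wild-type 5-FU replicate 1) and Fcgr1 (-0.29 without replicate 2), and the untreated genotype difference of Ly6c2 ranged from -0.09 to 0.10. Over genes, comparisons and alternatives, 920 values kept their side of the threshold and 68 lost it; apart from stricter fold limits and an adjusted p under 0.01, the losses concerned Fcgr1 and the fall of Ly6c2 in wild type. DESeq2 size factors moved the log2 fold changes of the 10 genes by a median of at most 0.017 in size in any comparison.

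In the order untreated genotype, genotype after 5-FU, 5-FU in wild type, 5-FU in Trim47-/- and interaction, all genes called numbered 5392, 8933, 8260, 9868 and 8957. At 2-fold or more they numbered 612, 1434, 1619, 2183 and 2774, and in a test against a 1.5-fold change 450, 1415, 1602, 2422 and 2913. Untreated, 3391 passed an adjusted p of 0.01. At 2-fold or more, 1, 4, 2, 5 and 7 of the 10 genes were called, and against a 1.5-fold change 4, 7, 3, 5 and 8. Leaving out each library in turn gave 7 to 7, 9 to 10, 7 to 8, 10 to 10 and 9 to 10 of the 10 genes, and 4551 to 5436, 8222 to 8929, 7522 to 8381, 9177 to 9914 and 8556 to 8684 of all genes.

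With the replicate number as a block, 5188, 8761, 8125, 9742 and 8827 genes and 7, 9, 8, 10 and 9 of the 10 were called; Fcgr1 lost its call after 5-FU and in the interaction (adjusted p = 0.0588 and 0.0519). For pairing, each library's deviations from its group mean were correlated with those of libraries in other groups. Same-numbered libraries gave -0.218 to 0.165 over 18 pairs, 5 of them over 0.1. Differently numbered ones gave -0.179 to 0.229 over 36 pairs, 7 of them over 0.1. A library correlated best with its own number in 15 of 36 cases, so the numbers were not taken to pair the libraries. With 3 libraries per group this check cannot exclude pairing. Depth limits Fcgr1 most.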
